A study of Arabidopsis thaliana with 2 samples.

Results

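The psbB and psbE operons of the plastid genome encode core subunits of photosystem II, and 8 of their genes were compared between axillary buds of 2 Arabidopsis thaliana lines. The genes are psbB, psbT and psbH of the psbB operon, psbN, which lies on the opposite strand within that operon, and psbE, psbF, psbL and psbJ of the psbE operon. They were chosen by name, and each was represented by 1 probe set, so that 8 of the 22746 probe sets on the array without its controls were members. All 8 passed the signal filter, a mean log2 signal at or above the array median, as did 62 of the 69 plastid-encoded genes with a probe set.

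In axr1-12 plants the gene AXR1, which helps to activate the ubiquitin-like protein RUB in auxin signalling, has lost function. In axr3-1 plants the AXR3 protein, a repressor of auxin-responsive transcription, is overactive. Both lines are in the Col-0 background and their mutations were induced with ethyl methanesulfonate. Plants grew on compost treated with Intercept WG before sowing, at 21 °C and about 60% humidity in cycles of 16 h light with 8 h dark. Sown soil was first kept cold for 3 days, and the buds of both lines were about 2 mm long. The series title contrasts dormant with active axillary meristems, but the labels do not say which line stood for which state. Each line had 1 array, and the labels do not give the number of plants behind it. No difference below therefore has a replicate check, a standard error or a p-value, and each compares these 2 RNA samples.

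Photosystem II splits water and passes its electrons to the plastoquinone pool. PsbB, also called CP47, is a chlorophyll-binding inner antenna, whereas PsbE and PsbF together bind the heme of cytochrome b559. The other products are small membrane proteins, of which PsbN takes part in assembly and is not a subunit of the finished complex. In plants the psbB operon is transcribed as 1 precursor that ends with petB and petD of the cytochrome b6f complex and is cut into many shorter RNAs. The psbE operon is transcribed as a unit of its own. Plastid messengers lack the long poly(A) tails of nuclear ones, and the labelling used an oligo(dT) primer, so how much of each was primed may differ from gene to gene.

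Signals of all 8 genes were lower in axr1-12 than in axr3-1 buds, but by unequal amounts in these operons. PsbN, psbB and psbT differed by 4.12-, 3.49- and 2.63-fold, while the 4 psbE operon genes and psbH differed by 1.15- to 1.60-fold. The 4 genes at the psbB locus had a median log2 difference of -1.60 (axr1-12 minus axr3-1), against -0.27 for the psbE operon, a gap of -1.33. With petB and petD, the last genes of the operon, the psbB locus had a median of -1.07, a gap of -0.80. Without psbN as well it was -0.74, a gap of -0.47 that is close to the disagreement between probe sets given below. In whole buds, fewer cells with chloroplasts and less plastid RNA per cell cannot be told apart. Scaled to the hybridisation spikes, psbE, psbF and psbJ were instead higher in axr1-12; this scaling adds 1 constant to every log2 difference and cannot change a gap. As a partial measure of error, 36 genes with a pair of probe sets past the filter had log2 differences that disagreed by a root mean square of 0.43 between the pair, which covers differences between probes but not between plants or hybridisations.

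**Figure D1:**
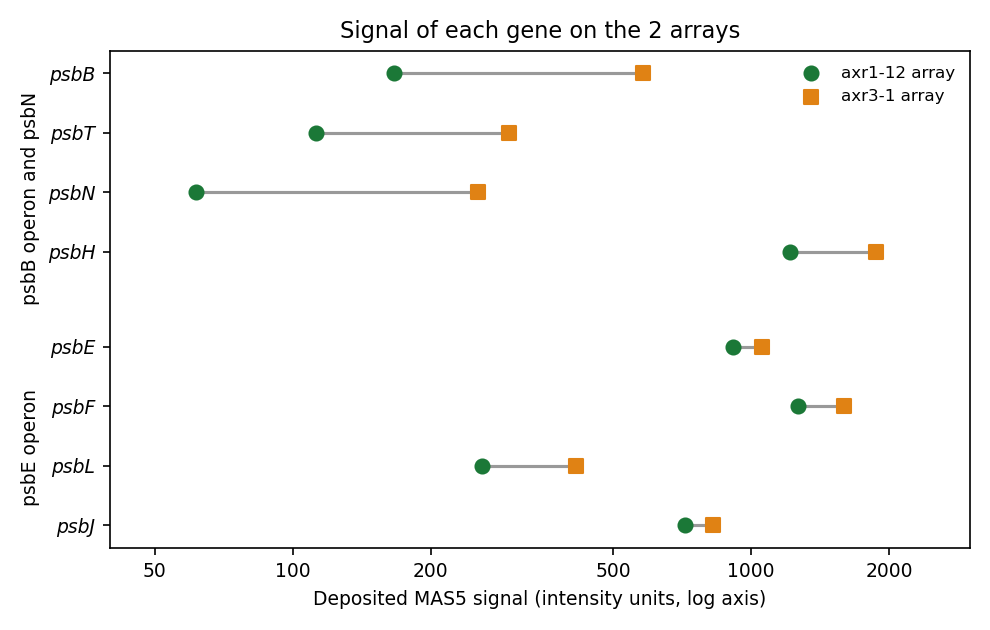
Deposited signal (intensity units, log axis) of the 8 genes on the axr1-12 array (circles) and the axr3-1 array (squares), 1 value per array, with a grey line joining the values of a gene. The lines are long for psbB, psbT and psbN, which had 61.6 units in axr1-12 and 254 in axr3-1, and short for psbE, with 911 and 1056 units, and for psbJ.

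PsbB, the CP47 antenna gene and first gene of its operon, had a signal of 167 units in axr1-12 and 582 in axr3-1. Its log2 difference was -1.80, and its place among all probe sets was at percentile 80.6 on the axr1-12 array and 96.1 on the axr3-1 array. PsbT, a small subunit near the dimer interface of photosystem II, had 112 units in axr1-12 and 296 in axr3-1, a log2 difference of -1.40, and stood at percentile 70.5 and 91.0 on those arrays. Both genes at the start of the operon thus had less than 0.4 of their axr3-1 signal in axr1-12.

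PsbH, a phosphorylated subunit whose gene follows psbT on the same strand, had 1218 units in axr1-12 and 1874 in axr3-1. Its log2 difference was -0.62. The next genes of the operon gave the same size of difference. PetB, cytochrome b6, had 4240 units in axr1-12 and 6505 in axr3-1, a log2 difference of -0.62, and petD, subunit IV of the same complex, had 44.4 and 74.4 units, a difference of -0.74. On these 2 arrays the signals of the operon thus differed by unequal amounts. The first 2 genes were 3.49- and 2.63-fold lower in axr1-12, and the last 3 were 1.53- to 1.68-fold lower. Each gene had 1 probe set, and psbH and petB were also brighter than psbB and psbT, while petD was dimmer. Whether probes, signal level or the RNAs themselves account for the step was not tested.

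PsbN had 61.6 units in axr1-12 and 254 in axr3-1, a log2 difference of -2.04 and the largest of the 8. Its percentile was 54.1 on the axr1-12 array and 89.1 on the axr3-1 array. The gene lies between psbT and psbH but is read from the other strand, from a promoter of its own, and its difference was nearer to that of psbT than to that of psbH, by gaps of 0.65 and 1.42. The labelling reaction keeps the strand of the RNA, which allows the genes of both strands to be read apart. Where the probes lie within each gene was not examined here.

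In the psbE operon, psbE, the alpha subunit of cytochrome b559, had 911 units in axr1-12 and 1056 in axr3-1, a log2 difference of -0.21. PsbF, the beta subunit, had 1266 units in axr1-12 and 1593 in axr3-1, a difference of -0.33. PsbJ, a small subunit encoded at the end of the operon, had 719 units in axr1-12 and 826 in axr3-1, a difference of -0.20. All 3 differences are smaller than the disagreement of 0.43 between probe sets, which measures gaps and not single differences. All 3 also changed sign when scaled to the spikes, and so their direction is not settled.

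PsbL, a small subunit whose gene sits between psbF and psbJ, had the largest difference of its operon. It had 260 units in axr1-12 and 415 in axr3-1, a log2 difference of -0.68, and its percentile was 89.1 in axr1-12 and 94.1 in axr3-1. The gap between psbL and psbJ was 0.48 and that between psbL and psbF 0.35, the first just above and the second below the disagreement between probe sets.

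Of the 8 genes, 3 were at least 2-fold lower in axr1-12, against 3.09% of the 11373 probe sets past the filter and 46.3% of the 54 other plastid-encoded genes. The share among the 8 is thus close to that of the plastid genome as a whole. Of the 54, 25 were at least 2-fold lower, a count of 19 after quantile or loess scaling and of 6 with the spikes, where 2 of the 8 were. The median log2 difference was -0.65 over the 8 and -0.94 over the 54. In axr1-12, 100% of the 54 were lower too, but 3 of them were higher after quantile or loess scaling and 10 with the spikes. Over all probe sets past the filter 47.6% were lower in axr1-12, and the median was 0.02.

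Set against the 54 others, members of both operons stood near opposite ends. PsbN had 2 of the 54 below it and psbB 5, whereas psbE, psbF and psbJ each had 53 below them and 1 above, rps15. PsbT had 10 below it, psbL 38 and psbH 42. The genes whose differences were nearest to that of psbN were atpA, an ATP synthase subunit, with 915 units in axr1-12 and 3760 in axr3-1, and ycf3, a photosystem I assembly factor, with 77.6 and 311. Their log2 differences were -2.04 and -1.998. Nearest to psbJ were rps15, a ribosomal protein gene, at -0.02 and psbM, another photosystem II subunit, at -0.41. With 1 array per line a pattern is a single difference, so this likeness is weak.

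**Figure D2:**
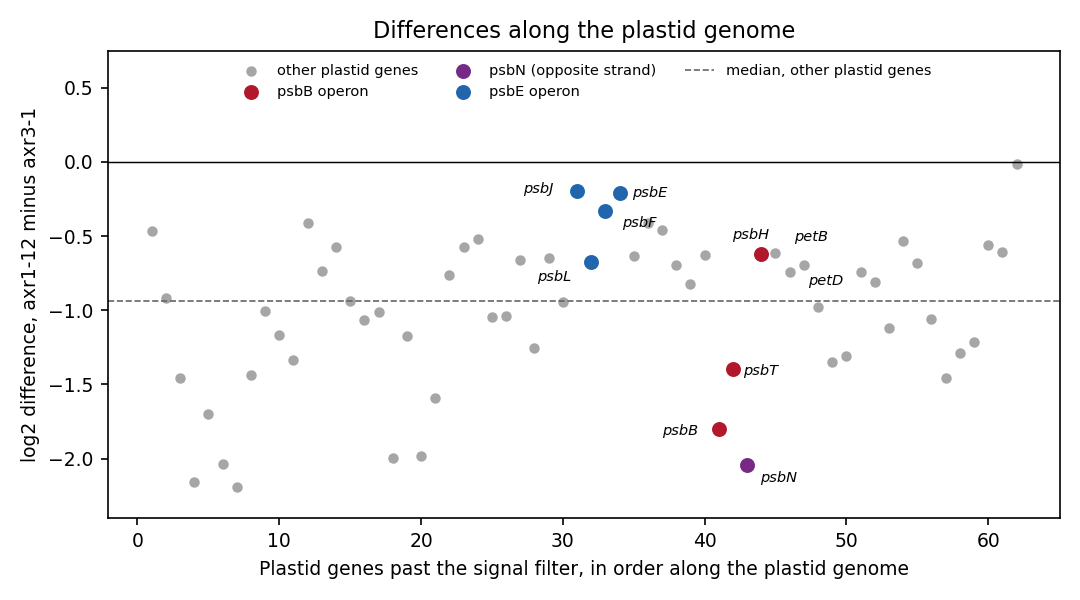
Log2 difference (axr1-12 minus axr3-1) of the 62 plastid genes past the signal filter, in their order along the plastid genome. PsbE, psbF and psbJ lie near the top, with psbJ at -0.20. PsbB, psbT and psbN lie well below the dashed median of the other genes, -0.94, and psbL, psbH, petB and petD lie above it.

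The flanking genes were unlike their neighbours at the start of the psbB operon and at the end of the psbE operon. At the other ends the gaps were not above the disagreement between probe sets, for psbE only just. ClpP, a protease subunit gene next to psbB, had 2750 units in axr1-12 and 4260 in axr3-1, a log2 difference of -0.63, against -1.80 for psbB. PetA, cytochrome f, next to psbJ, had 1026 units in axr1-12 and 1975 in axr3-1, a difference of -0.94. PetL, a small subunit of the cytochrome b6f complex on the psbE side, had 572 units in axr1-12 and 889 in axr3-1, a difference of -0.64. Its gap to psbE of 0.42 is only just below the disagreement between probe sets, which does not show that the 2 genes are alike. RpoA, a subunit of the plastid RNA polymerase next to petD, had 441 units in axr1-12 and 715 in axr3-1, a difference of -0.69 close to that of petD. The start of the psbB operon was thus lower in axr1-12 than its neighbour by a gap of 1.17, well above the 0.43 seen between probe sets, and psbJ was less lowered than petA, by a gap of 0.75. Further along from petA, accD, a subunit of acetyl-CoA carboxylase, had a log2 difference of -1.04.

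Steps of this size within an operon were found elsewhere in the plastid genome too, but in few places. In 14 operons whose gene order is known, 35 pairs of consecutive genes had both members past the filter, and the median gap between their log2 differences was 0.29. Of the 35 gaps, 9 were above the 0.43 by which probe sets of a gene disagree, and the others cannot be told from equal differences. The 0.43 is a root mean square and not an upper limit, so some gaps between probe sets of a gene exceed it too. A gap above 0.43 therefore does not by itself show unequal differences. The gap of 0.78 between psbT and psbH ranked second among the 35, after that of 0.83 between ndhC and ndhK and before that of 0.75 between atpH and atpF. Its neighbour, between psbH and petB, was the smallest, under 0.01. For psbB and psbT the gap was 0.40, below that measure, and the largest in the psbE operon was the 0.48 between psbL and psbJ. The step inside the psbB operon is therefore at the upper end of a range that other operons also reach.

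**Figure D3:**
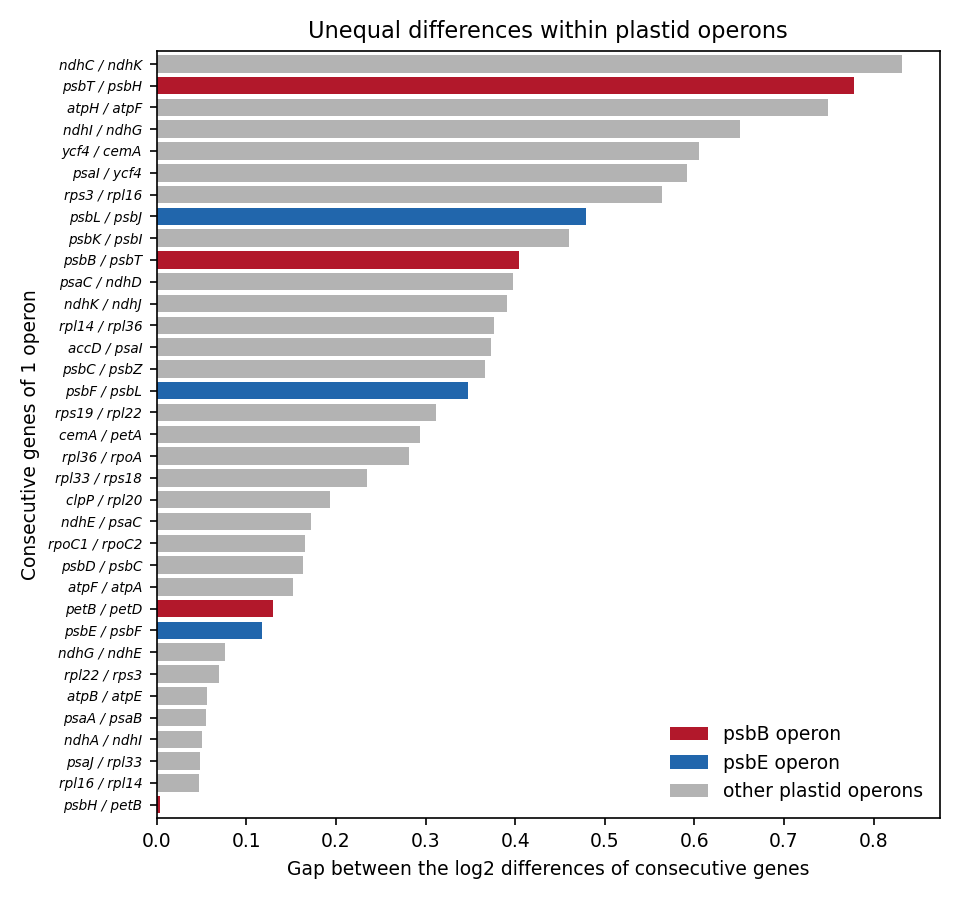
Size of the gap between the log2 differences (axr1-12 minus axr3-1) of consecutive genes, for 35 pairs in 14 plastid operons, with the psbB operon in red and the psbE operon in blue. The pair psbT and psbH is second, at 0.78, and the pair psbH and petB is last.

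By strand, the members did not separate. Those on the strand of psbB, that is psbB, psbT and psbH, ranged from -1.80 to -0.62. Those on the other strand, psbN and the psbE operon, ranged from -2.04 to -0.20, so that the opposite strand held both the largest and the smallest differences. Over the plastid genome the median was -1.07 for 28 other genes on the strand of psbN and psbE, and -0.71 for 16 other genes on the strand of psbB. Both sets spanned a wide range, -2.19 to -0.52 and -2.16 to -0.41, and overlapped. Strands were read from gene order within operons. PsbN was set on the strand opposite to psbB by the definition of the members, and other genes outside a known operon were left out.

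The other photosystem II genes of the plastid genome had differences as uneven as those of the 8. PsbK and psbI, small subunits transcribed together, had log2 differences of -2.16 and -1.70. PsbK had 312 units in axr1-12 and 1396 in axr3-1, and psbI 287 and 931. PsbZ, an antenna-linked subunit, differed by -0.94, psbD, the D2 reaction centre protein, by -0.73 and psbC, the CP43 antenna, by -0.57. PsbA, the D1 reaction centre protein, had 1597 units in axr1-12 and 2211 in axr3-1, a difference of -0.47, and psbM differed by -0.41. The median of these 7 was -0.73. The RNA signals of psbB and psbC, which encode the paired inner antennae CP47 and CP43, thus differed by 3.49- and 1.49-fold. Protein was not measured.

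Dimmer plastid genes tended to have larger differences. Over the 62 plastid genes past the filter, mean log2 signal and log2 difference had Pearson's r = 0.39 and Spearman's rho = 0.51. These are descriptions across genes that share the same 2 arrays. Among the 8, psbE, psbF, psbJ and psbH had mean log2 signals of 9.59 to 10.56, while psbB, psbT and psbN had 8.28, 7.51 and 6.97. PsbL, at a mean of 8.36 close to that of psbB, had a log2 difference of -0.68 against -1.80 for psbB. PetD, at 44.4 units in axr1-12, was dim with a small difference, but its mean of 5.85 was close to the filter at 5.69. Under quantile and loess scaling the gap between the operon medians was -1.57 and -1.55. Both take out a trend with signal over all probe sets, and cannot take out one among plastid genes alone. The part of signal level in the contrast between the operons was not tested.

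**Figure D4:**
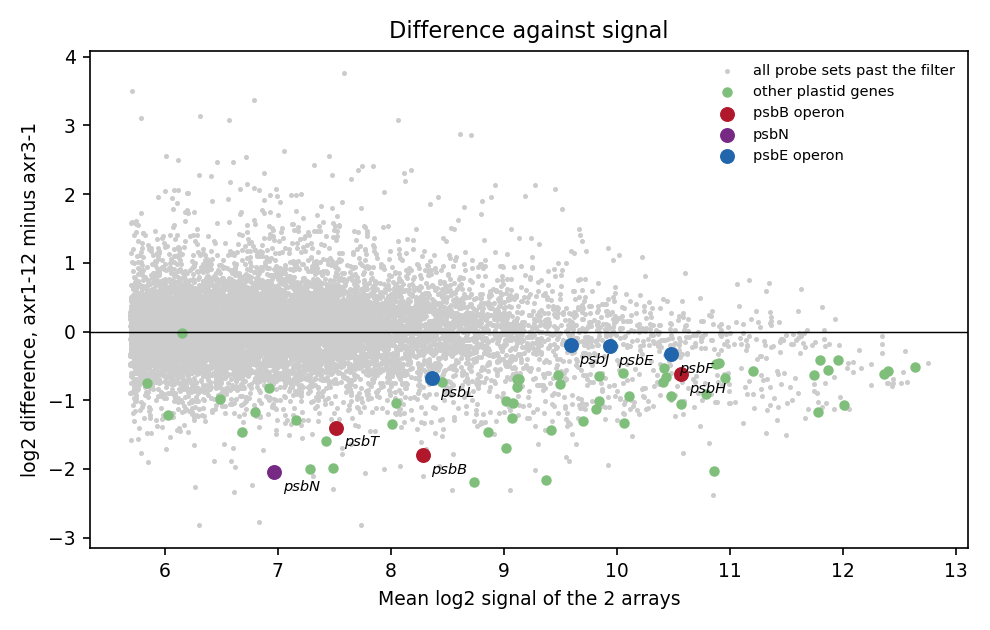
Log2 difference (axr1-12 minus axr3-1) against mean log2 signal for the 11373 probe sets past the filter (grey), the other plastid genes (green) and the 8 genes. All plastid genes marked lie below 0, with psbN at -2.04. Of them only rps15 lies nearer to 0 than psbE, psbF and psbJ, while psbL lies lower, at -0.68.

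Nuclear genes for photosystem II were lower in axr1-12 as well, where they could be read. Of 58 genes in 6 lists on photosystem II and plastid gene expression, 10 passed the filter. All 10 were lower in axr1-12, against 47.6% of all probe sets past the filter, and 1 was at least 2-fold lower, against 3.09%, with a median log2 difference of -0.70. With the spikes LPA1, PAM68, LPA66 and CREF3 were higher in axr1-12, and after quantile or loess scaling none of the 10 reached 2-fold. Both subunit genes measured of 12, PSBY and PSBW, small membrane proteins of photosystem II, differed by -0.90 and -0.89. PSBY had 1326 units in axr1-12 and 2481 in axr3-1. Of 14 assembly factor genes 6 were measured, with a median of -0.70. Their smallest difference was that of LPA1, -0.15 and within the disagreement between probe sets. PSB27, a lumenal factor of photosystem II assembly and repair, was 2.17-fold lower, at 837 units in axr1-12 and 1820 in axr3-1.

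Of 6 genes for proteins that act on RNA of these operons, 2 were measured. CREF3, an editing factor for psbE RNA, had 69.3 units in axr1-12 and 94.9 in axr3-1, a log2 difference of -0.45. LPA66, an editing factor for psbF RNA, had 53.0 and 64.8 units, a difference of -0.29 that lies within the disagreement between probe sets. No gene of the sigma factor list, the plastid polymerase list or the RNA processing list passed the filter under a single gene name, so these are not analysed here.

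Several values outside the 8 genes moved with them. All 18 hybridisation spike probe sets were lower on the axr1-12 array, by a median log2 ratio of -0.61. The control for cytosolic 25S ribosomal RNA had 549 units in axr1-12 and 1101 in axr3-1. By contrast, the log2 differences of 5 measured mitochondrion-encoded genes lay between -0.52 and 0.19 around a median of 0.07, with none at least 2-fold lower. A control for 5S ribosomal RNA was not lower in axr1-12, at 10.4 units against 7.92 in axr3-1, but both are below the floor of 15.4 units. Of 6 leaf marker genes 2 had a probe set under 1 gene name, with a summed signal of 4742 units in axr1-12 and 8147 in axr3-1, an antenna gene, LHCB4.1, at a log2 difference of -1.12 and RCA, which encodes Rubisco activase, at -0.20. The part of all these in the results was not tested. Of 13 bud and meristem markers 2 could be read. LAS, an axillary meristem gene, had 61.8 units in axr1-12 and 69.8 in axr3-1, and CLV3, a stem cell gene, had 2.74 and 7.29, below the floor of 15.4 units on both arrays.

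Quantile and loess scaling, which could have moved the contrast between the operons, left its direction as it was. The direction of the psbE operon depended on the scaling. PsbN, psbB and psbT lay between -2.10 and -1.40 under median-ratio, quantile and loess scaling, and at -1.44, -1.20 and -0.79 when the arrays were scaled to the spikes. PsbE, psbF and psbJ were within 0.10 of 0 after quantile and loess scaling and were higher in axr1-12 by 0.27 to 0.41 with the spikes, which raised the median of all probe sets past the filter to 0.63. PsbL was at -0.69 after both quantile and loess scaling, as before, and at -0.07 with the spikes.

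**Figure D5:**
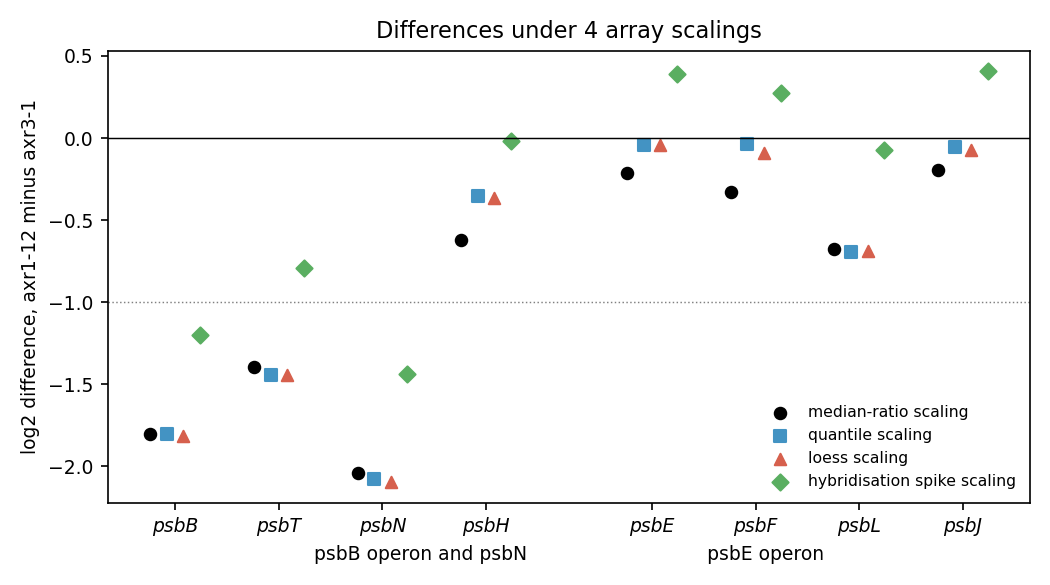
Log2 difference (axr1-12 minus axr3-1) of the 8 genes under 4 ways of scaling the arrays, with a dotted line at a 2-fold lower signal. PsbB, psbT and psbN lie below the psbE operon under median-ratio, quantile and loess scaling, and hence also with the spikes, which shift all genes alike, and psbE, psbF and psbJ lie above 0 with the spikes, at 0.27 to 0.41.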

How the data were processed

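RNA of axillary buds was measured on 1 single-colour array per line. Per the labels' protocols, total RNA from DNase-treated columns was reverse transcribed from a T7-oligo(dT) primer and then transcribed into biotin-labelled cRNA. The authors deposited 1 linear intensity per probe set and array, computed with MAS5, per the submitters' processing notes. On each array their mean, trimmed of 2% at either end, was 100.0.

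Of 22810 probe sets, 64 manufacturer's controls were left out. Of the rest, 13513 had 1 gene in the platform annotation, 503 several and 8730 were unlisted. Symbols and gene order came from TAIR10.1. With numpy 2.4.6 and pandas 2.3.3, signals of axr1-12 were rescaled so that the median ratio between arrays was 1 (a shift of -0.002 on the log2 scale), signals under the 25th percentile, 15.4 units, were set to it, and log2 differences were taken as axr1-12 minus axr3-1. The filter kept the 11373 probe sets with mean log2 signal at or above the median. Where several probe sets named 1 gene, the brightest stood for it. The spikes and the 25S control are given as ratios of deposited intensities. The threshold was 2-fold. With 1 array per line no test was made, and the number of arrays limits the precision. Steps were tested on simulated data.

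The members and lists were chosen with earlier results of these data known. Named were the 8 genes, their operon partners and flanking genes, clpP, accD and petA, the other plastid photosystem II genes, the 2 plastid genes nearest to the extreme members, and from each list up to 4 genes past 2-fold, or otherwise up to 2 with the largest difference. The pairs ndhC and ndhK, atpH and atpF, the genes LPA1 and PAM68, the markers and the 25S control were named after their values were seen. Alternatives were other scalings, floors, filters, thresholds and operon memberships.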

Additional observations from a re-analysis of the deposited data

How the results depend on the processing

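Of 135 alternative values, 103 moved by less than the 0.43 disagreement between probe sets, or for counts by less than 1.5 times. Another 23 moved further and 9 changed sign. In all cases beyond the change of scale itself the cause was not tested. Many of the 103 could hardly move, so their share does not measure robustness. The deposited scale differs by a shift of only -0.002. All 8 genes lie above the floor of 15.4 units and pass every filter used. Leaving out the floor or changing the filter thus cannot move their values or the operon medians. Spike scaling, which adds 0.60 to every log2 difference, gave psbB -1.20, psbT -0.79, psbH -0.016, psbN -1.44, psbE 0.39, psbF 0.27, psbL -0.073 and psbJ 0.41. It gave medians of -0.996 for the psbB operon with psbN, 0.33 for the psbE operon, -0.32 for all plastid genes, and -0.41 and -0.13 for those on the strand of psbN and on that of psbB. It also gave 2210 probe sets at least 2-fold higher and 50 lower in axr1-12. Relative to the median of the 54 other plastid genes, psbB was at -0.86, psbT at -0.46, psbN at -1.10, psbH at 0.32, psbE at 0.73, psbF at 0.61, psbL at 0.26 and psbJ at 0.74. The psbB operon median of -1.60 became -1.07 with petB and petD added, and -0.74 when psbN was also left out, an alternative chosen after seeing the data. The counts of 371 higher and 351 lower became 746 and 691 without a filter, over more probe sets, 91 and 51 at 3-fold, and 247 and 269 with the filter at the 67th percentile. Over 6 scalings and floors chosen after seeing the data, the gap between the operon medians ran from -1.57 to -1.23. That between psbT and psbH ran from -1.09 to -0.67. Of the 6, the deposited scale and the spikes shift all genes alike and cannot change either gap. Leaving out the floor cannot either, as all 8 genes lie above it. By membership, also chosen then, the gap between the operon medians was -1.13 without psbN, -0.80 with petB and petD added and -0.47 with both changes. Each of the 8 genes has 1 probe set, so averaging probe sets changed nothing for them. No paired analysis was possible because each line has 1 array.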
